A study of Mus musculus with 6 samples.

Results

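The genes described here encode the enzymes, transporters and regulators that carry glucose to pyruvate and lactate, turn pyruvate into acetyl-CoA in the mitochondrion and run the pentose phosphate pathway. They were taken by symbol from a list of 35 names, and 35 of the 11789 genes of the deposited table matched. RNA-seq was made from alveolar macrophages, phagocytes that live in the air spaces of the lung, of C57BL/6 mice that had an exposure abbreviated BLM. Of 6 libraries, 3 (A20-1, A20-3 and A20-4) were from A20 conditional knockout mice and 3 (BLM1, BLM2 and BLM3) from wild-type mice, and all 6 shared the exposure. The wild-type group of the BLM columns follows from their names, which lack A20. Tnfaip3 encodes A20, a ubiquitin-editing protein that restrains NF-kB signalling. The labels give neither the Cre driver and the deleted cell type nor the dose, the time, the age of the animals or whether animals were pooled. The p-values therefore refer to the spread among these libraries, which may be technical in part.

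Glycolysis splits glucose into pyruvate in the cytosol, with control at hexokinase, phosphofructokinase and pyruvate kinase. Lactate dehydrogenase turns pyruvate into lactate and regenerates NAD+, while the pyruvate dehydrogenase complex turns it into acetyl-CoA for the mitochondrial citric acid cycle. The pentose phosphate pathway leaves glycolysis at glucose 6-phosphate and yields NADPH and ribose 5-phosphate. Macrophages stimulated through Toll-like receptors are known to raise glycolysis, with HIF-1alpha, the oxygen-regulated transcription factor encoded by Hif1a, inducing many of these genes.

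Values are FPKM, in which fragments are corrected for transcript length and library size, so levels can be compared between genes of a library. Between libraries the comparison is approximate, because the sums of FPKM differed. The read depth behind the values is unknown. Sums of FPKM ran from 266094 to 277394 in the A20 conditional knockout libraries and from 280415 to 294525 in the wild-type libraries. BLM3 stood apart, with Pearson correlations across genes of 0.886 to 0.925 with the other libraries, against 0.953 or more among the other 5. All 15 alveolar macrophage markers were listed above 0 in every library, with sums of 6026 to 8431 FPKM in knockout and 4274 to 7643 FPKM in wild-type libraries. Chil3 was the most abundant of them, and 6 of the 15 (Pparg, Ear2, Krt79, Cidec, Ear1 and Plet1) lay higher and 1 (Marco) lower in every knockout library than in any wild-type library. Markers of other cells also moved with the groups. The 14 monocyte and recruited macrophage markers in the table summed to 562 to 726 FPKM in knockout and 1926 to 2205 FPKM in wild-type libraries, and 9 of them lay lower in every knockout library, with 0 listed at 0 in any library. The 10 lung epithelial markers summed to 313 to 399 FPKM in knockout and 80.6 to 221 FPKM in wild-type libraries, mostly from Scgb1a1 and Sftpc, with 3 of the 10 (Scgb1a1, Epcam and Cdh1) higher and 2 (Krt8 and Krt18) lower in every knockout library. The part of these cells in the values below was not tested. Tnfaip3, the targeted gene, averaged 9.39 ± 3.18 FPKM in knockout and 9.42 ± 10.6 FPKM in wild-type libraries (SD, n = 3 each; limma adjusted p = 0.734). Its wild-type values were 4.47, 2.18 and 21.6 FPKM, and without BLM3, the highest, its log2 difference was 1.27 (adjusted p = 0.0797) instead of 0.46. A whole-gene value can also include exons that a deletion leaves. Its level thus does not check the label, and each direction is one between libraries as labelled.

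No enzyme of these pathways passed the test with all 6 libraries. Of the 34 genes tested (limma, adjusted p under 0.05 over all 10696 genes tested), 0 rose and 0 fell in the A20 conditional knockout libraries. Over all genes tested, 0.252% rose and 0.851% fell, so a count of 0 among 34 genes lies near the background. At an unadjusted p under 0.05, 1 gene was higher and 8 were lower, 2.94% and 23.5% of the 34, against 11.0% higher and 9.30% lower over all genes. The 3 knockout values lay wholly below the 3 wild-type values in 10 of the 34 genes and wholly above them in 4, or 29.4% and 11.8%, against 13.1% and 15.9% over all genes tested. Differences were positive in 14 and negative in 20 of the 34 genes, against 52.9% positive and 47.1% negative over all genes. Without BLM3 they were positive in 11 and negative in 23, against 54.1% and 45.9%. The median log2 difference was -0.13 for the 34 genes and 0.02 for all genes, without BLM3 -0.07 and 0.03, and after rescaling to TPM -0.05 and 0.10, with 16 positive and 18 negative. Without BLM3 the glucose transporter gene Slc2a1 and the phosphoglycerate mutase gene Pgam1 fell (2 genes, against 2.50% falls and 1.35% rises over all genes), and 0 rose. At an unadjusted p under 0.05, 2 were then higher and 9 lower, against 12.1% and 11.2% over all genes. In these bulk samples, fewer cells of a type and less RNA per cell cannot be told apart.

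**Figure D1:**
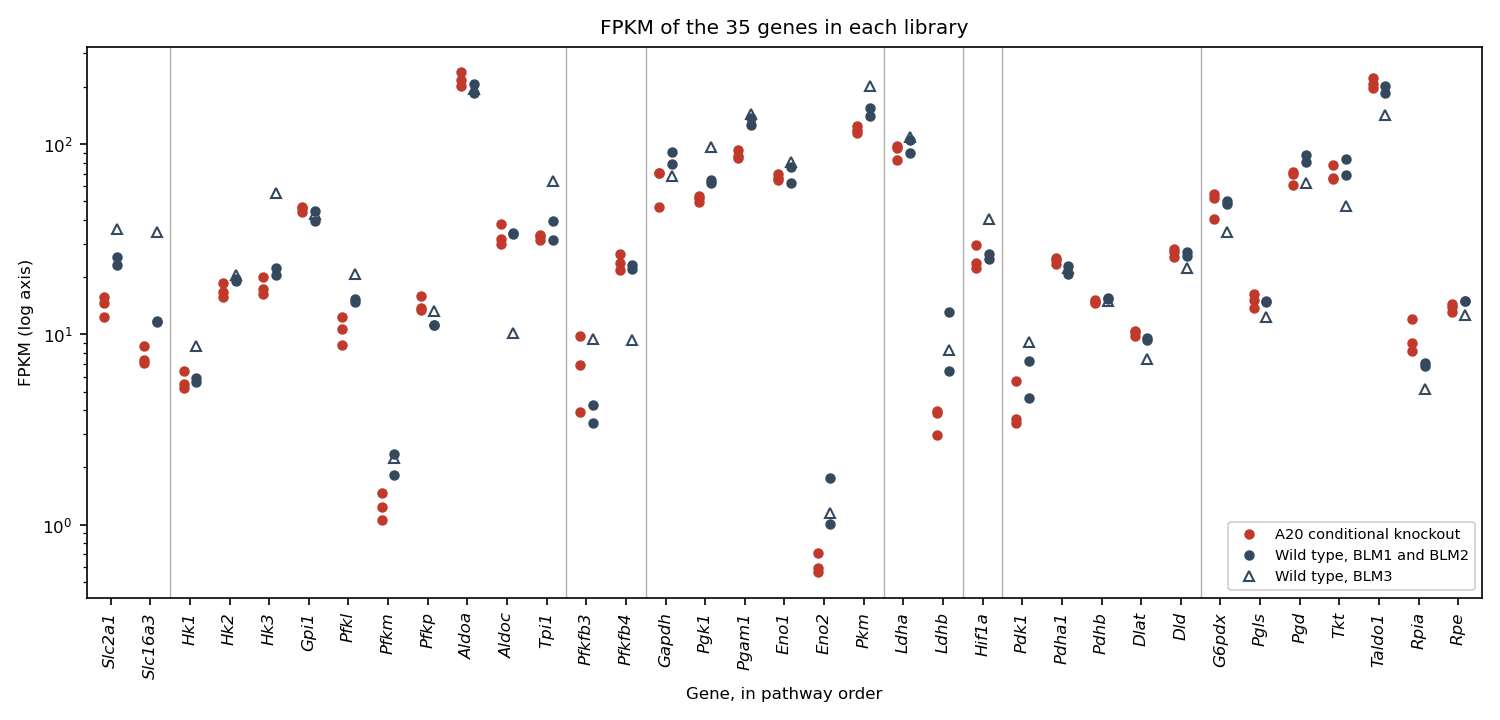
FPKM (log axis) of the 35 genes in pathway order, with the A20 conditional knockout libraries left and the wild-type libraries right for each gene, 1 point a library. Knockout points lie below all wild-type points for Slc2a1, Pgam1, Pkm and Ldhb, and the BLM3 triangle lies far from the other wild-type points for Slc16a3, Hk3, Aldoc and Pfkfb4.

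The promoters of the genes with the smallest p that hold the letters ACGTG, a form of the core to which HIF-1 binds, are shown because Hif1a is itself among the genes described. The windows run from 250 bases before to 50 bases after the RefSeq start nearest to the gene's start in the table (GRCm38.p6), 5′ to 3′ on the gene's strand, with capitals for ACGTG and its reverse complement CACGT. They are chr19:41911621-41911920 (plus strand) for Pgam1, chr4:119108495-119108794 (plus) for Slc2a1, chr15:98092339-98092638 (plus) for Pfkm and chrX:106186850-106187149 (plus) for Pgk1.
Pgam1: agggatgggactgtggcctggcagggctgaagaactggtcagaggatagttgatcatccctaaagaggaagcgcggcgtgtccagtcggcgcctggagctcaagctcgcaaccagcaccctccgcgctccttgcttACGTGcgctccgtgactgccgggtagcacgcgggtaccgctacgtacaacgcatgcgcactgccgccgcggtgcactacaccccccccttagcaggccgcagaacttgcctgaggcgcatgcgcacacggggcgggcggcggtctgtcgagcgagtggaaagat
Slc2a1: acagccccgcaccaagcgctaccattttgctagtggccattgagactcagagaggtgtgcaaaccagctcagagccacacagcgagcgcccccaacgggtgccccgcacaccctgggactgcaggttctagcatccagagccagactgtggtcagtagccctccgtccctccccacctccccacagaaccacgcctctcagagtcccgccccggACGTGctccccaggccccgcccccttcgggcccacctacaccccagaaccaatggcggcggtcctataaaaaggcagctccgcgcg
Pfkm: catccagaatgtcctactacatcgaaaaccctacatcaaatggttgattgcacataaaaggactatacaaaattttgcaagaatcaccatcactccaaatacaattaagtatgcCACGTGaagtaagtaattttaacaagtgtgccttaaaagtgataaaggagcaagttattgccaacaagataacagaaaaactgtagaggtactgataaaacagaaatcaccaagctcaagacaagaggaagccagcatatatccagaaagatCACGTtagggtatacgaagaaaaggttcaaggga
Pgk1: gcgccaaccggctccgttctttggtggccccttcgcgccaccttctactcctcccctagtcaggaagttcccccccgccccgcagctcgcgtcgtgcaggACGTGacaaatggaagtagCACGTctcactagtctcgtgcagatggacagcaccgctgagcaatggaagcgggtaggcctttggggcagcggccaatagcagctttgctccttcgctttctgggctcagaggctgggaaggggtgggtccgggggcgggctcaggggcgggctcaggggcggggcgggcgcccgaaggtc
The Pgam1 window holds 1 such run and the Slc2a1 window 1. In Pfkm, the run CACGTG reads ACGTG on both strands, and a further run lies after the start. In Pgk1 the 2 runs lie on opposite strands. Of 34 genes with a matched promoter, 14 held ACGTG on either strand (41.2%), against 26.5% of 8441 tested genes with a promoter, and 3 held CACGTG (8.82%), against 10.6%. Hif1a and Ldha are in both counts, though their matched starts lay 6492 bases (Hif1a) and 4329 bases (Ldha) from the deposited gene start. The promoters of Ldhb, Pfkl, Rpia and Pkm, whose p was also small, held none in this window. A match describes the letters and does not show binding.

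Both transporter genes had lower values in all knockout libraries. Slc2a1 (chr4:119108711-119137983, plus strand, GRCm38) encodes GLUT1, the glucose carrier of the plasma membrane. It had 15.6, 14.6 and 12.4 FPKM in A20-1, A20-3 and A20-4, against 23.3, 25.5 and 36.0 FPKM in BLM1, BLM2 and BLM3. The groups did not overlap, and the knockout mean was 0.504 times the wild-type mean. On the log2 scale the difference, -0.92 ± 0.18 (SE, limma adjusted p = 0.0748), missed the threshold with 6 libraries and passed it without BLM3, at -0.74 ± 0.13 (SE, adjusted p = 0.0352). Over all alternatives its adjusted p ran from 0.0352 to 0.269.

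Slc16a3 encodes MCT4, which exports lactate. It had 8.71, 7.09 and 7.30 FPKM in the A20-1, A20-3 and A20-4 libraries, against 11.7, 11.8 and 34.6 FPKM in BLM1, BLM2 and BLM3. BLM3 held 2.95 times the mean of BLM1 and BLM2, yet these also lay above every knockout value. The log2 difference was -1.05 ± 0.40 (SE, limma adjusted p = 0.212), and -0.55 (adjusted p = 0.0611) without BLM3.

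Of the 3 hexokinase genes, whose products trap glucose as glucose 6-phosphate, Hk2 and Hk3 had lower values in all knockout libraries. Hk3 had 17.4, 16.2 and 19.9 FPKM in A20-1, A20-3 and A20-4, against 22.3, 20.5 and 55.2 FPKM in BLM1, BLM2 and BLM3. The gap to BLM2 was narrow, and the log2 difference of -0.70 ± 0.36 (SE, limma adjusted p = 0.324) shrank to -0.25 without BLM3. Hk2 averaged 17.0 ± 1.44 FPKM in knockout and 19.7 ± 0.755 FPKM in wild-type libraries (SD, n = 3 each; limma adjusted p = 0.312). Hk1 was the lowest of the 3 genes, at 5.69 ± 0.636 FPKM in knockout and 6.74 ± 1.66 FPKM in wild-type libraries (SD, n = 3 each, limma adjusted p = 0.550), with overlapping groups. Its share of the summed hexokinase FPKM did not overlap, at 13.2%, 13.6% and 15.2% in A20-1, A20-3 and A20-4. In BLM1, BLM2 and BLM3 it was 12.5%, 12.4% and 10.3% (exact permutation p = 0.1, adjusted 0.175).

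Phosphofructokinase makes the committed step of glycolysis, and its 3 genes differed in direction. Pfkl, the liver-type gene, had 12.3, 8.85 and 10.6 FPKM in A20-1, A20-3 and A20-4, against 15.3, 14.8 and 20.9 FPKM in BLM1, BLM2 and BLM3. Pfkm, the muscle-type gene, had 1.05, 1.47 and 1.24 FPKM in A20-1, A20-3 and A20-4, against 2.35, 1.83 and 2.23 FPKM in BLM1, BLM2 and BLM3. Neither gene's groups overlapped, with log2 differences of -0.63 ± 0.17 for Pfkl (SE, limma adjusted p = 0.128) and -0.48 ± 0.13 for Pfkm (SE, adjusted p = 0.122). Pfkp, the platelet-type gene, had 13.4, 13.8 and 15.9 FPKM in the knockout libraries A20-1, A20-3 and A20-4, against 11.2, 11.2 and 13.3 FPKM in the wild-type libraries BLM1, BLM2 and BLM3. Here the knockout values lay above the wild-type values, by the small margin between A20-1 and BLM3, or 0.25 ± 0.12 in log2 units (SE, limma adjusted p = 0.288).

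The makeup of the phosphofructokinase step differed accordingly. Pfkp made up 50.0%, 57.3% and 57.2% of the step's summed FPKM in A20-1, A20-3 and A20-4, against 38.8%, 40.3% and 36.6% in BLM1, BLM2 and BLM3. On average this was 54.8% ± 4.20 in knockout and 38.5% ± 1.87 in wild-type libraries (SD, n = 3 each). Pfkl took 40.3% ± 5.03 in knockout and 54.5% ± 2.42 in wild-type libraries, with no overlap either. For each, p was 0.1 in an exact permutation test (two-sided), the smallest value that 3 against 3 allows, and 0.175 after adjustment over the 14 isoenzyme shares tested. Shares of a step sum to 100%, so they are not independent of each other. BLM3 lay close to BLM1 and BLM2 here, and without it the wild-type mean for Pfkp was 39.5%.

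**Figure D2:**
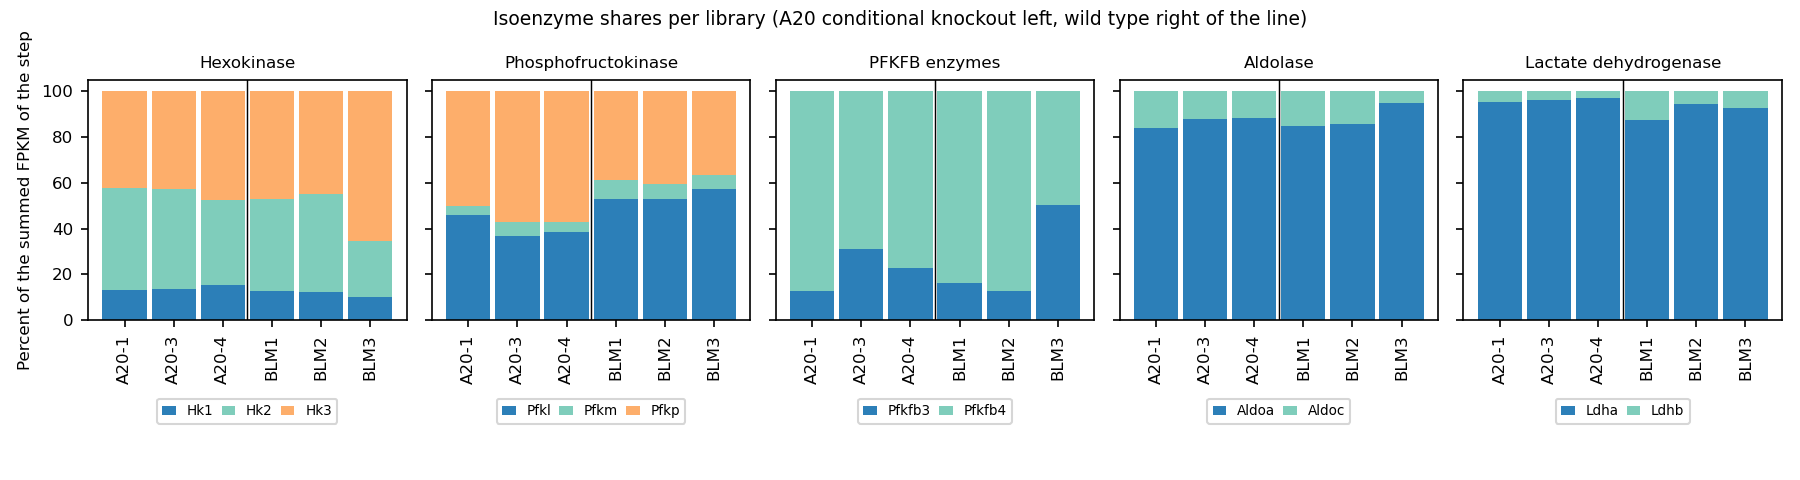
Percent of the summed FPKM of a step carried by each isoenzyme gene, 1 stacked bar a library, with A20 conditional knockout libraries left and wild-type libraries right of the line. Pfkp holds 50.0% or more of the phosphofructokinase bar in each knockout library and 40.3% or less in each wild-type library. For hexokinase, PFKFB and aldolase the BLM3 bar differs most from the others, and the Hk1 share is higher in each knockout library.

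The PFKFB enzymes set the level of fructose 2,6-bisphosphate, the activator of phosphofructokinase, and both genes varied widely within groups. Pfkfb3 had 3.89, 9.82 and 6.89 FPKM in A20-1, A20-3 and A20-4, against 4.26, 3.42 and 9.48 FPKM in BLM1, BLM2 and BLM3. Pfkfb4 had 26.6, 21.9 and 23.6 FPKM in A20-1, A20-3 and A20-4, against 22.0, 23.1 and 9.36 FPKM in BLM1, BLM2 and BLM3. Groups overlapped for both, with limma adjusted p of 0.746 for Pfkfb3 and 0.436 for Pfkfb4. In BLM3 the 2 genes were nearly even, with Pfkfb4 at 49.7% of their sum, against 83.7% and 87.1% in BLM1 and BLM2 and 69.0% to 87.3% in the knockout libraries.

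The middle of the pathway overlapped between groups. Aldoa, the main aldolase gene, was the most abundant of the 35 genes at 219 ± 19.1 FPKM in knockout and 197 ± 10.4 FPKM in wild-type libraries (SD, n = 3 each; limma adjusted p = 0.479). Aldoc, the second aldolase gene, averaged 33.2 ± 4.26 FPKM in knockout and 26.0 ± 13.7 FPKM in wild-type libraries (adjusted p = 0.542), where BLM3 had 10.1 FPKM and BLM1 and BLM2 33.8 and 34.0 FPKM. Gpi1, which interconverts glucose 6-phosphate and fructose 6-phosphate, averaged 45.6 ± 1.33 FPKM in knockout and 42.3 ± 2.42 FPKM in wild-type libraries (adjusted p = 0.553), and its 95% interval of the log2 difference ran from -0.12 to 0.34. Tpi1, the triose phosphate isomerase gene, had 31.2 to 33.3 FPKM in knockout libraries and 31.3, 39.2 and 63.9 FPKM in BLM1, BLM2 and BLM3 (adjusted p = 0.411).

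In the lower part of glycolysis, which runs from glyceraldehyde 3-phosphate to pyruvate and yields the ATP, all 5 genes tested had negative differences, in each alternative run, with 0 of them passing the test with 6 libraries. Pgam1 (chr19:41911871-41918664, plus strand), the phosphoglycerate mutase gene whose promoter is printed above, had the smallest p of all 34 genes. It had 92.9, 86.5 and 85.0 FPKM in A20-1, A20-3 and A20-4, against 127, 137 and 145 FPKM in BLM1, BLM2 and BLM3. The gap between the groups was wide relative to the spread within them, and the knockout mean was 0.647 times the wild-type mean. In log2 units the difference was -0.62 ± 0.10 (SE, limma adjusted p = 0.0537), just short of the threshold, and -0.58 ± 0.10 without BLM3 (SE, adjusted p = 0.0363). Its adjusted p ran from 0.0363 to 0.222 over the alternatives, and its log2 difference from -0.67 to -0.58 when any library was left out.

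Pkm, which encodes pyruvate kinase of the M type, had 118, 114 and 124 FPKM in A20-1, A20-3 and A20-4, against 140, 155 and 203 FPKM in BLM1, BLM2 and BLM3. Pgk1 (chrX:106187100-106203699), phosphoglycerate kinase, had 51.8, 49.5 and 53.7 FPKM in A20-1, A20-3 and A20-4, against 62.6, 64.9 and 96.5 FPKM in BLM1, BLM2 and BLM3. Neither gene's groups overlapped. Log2 differences were -0.46 ± 0.16 for Pkm (SE, limma adjusted p = 0.178) and -0.50 ± 0.18 for Pgk1 (SE, adjusted p = 0.193), or -0.31 and -0.30 without BLM3. Gene-level values do not separate the M1 and M2 splice forms of Pkm.

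Gapdh, often used as a reference gene, had 70.8, 70.8 and 46.8 FPKM in A20-1, A20-3 and A20-4, against 90.6, 78.9 and 68.3 FPKM in BLM1, BLM2 and BLM3, with overlap at BLM3 (limma adjusted p = 0.359). Eno1, the main enolase gene, averaged 67.0 ± 2.36 FPKM in knockout and 73.1 ± 9.32 FPKM in wild-type libraries (SD, n = 3 each; adjusted p = 0.622). Its close copy Eno1b was listed at 0 in A20-3 and BLM2 and at 10.9 to 20.1 FPKM in the other libraries, so the split of reads between the copies is uncertain. Eno2, the neuronal enolase gene, was under the minimum level for testing, at 0.560, 0.592 and 0.710 FPKM in A20-1, A20-3 and A20-4, against 1.75, 1.01 and 1.16 FPKM in BLM1, BLM2 and BLM3. GENCODE M21 holds 2 pseudogenes each that are named by symbol (with the suffix -ps) after Aldoa, Gapdh, Pgk1, Pgam1 and Ldha. Pseudogenes under other names were not counted, so these and the other genes may have more. How reads shared with pseudogenes were counted is not given, so the levels carry that uncertainty.

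Lactate dehydrogenase differed in its minor gene. Ldhb (chr6:142490249-142507957, minus strand), whose subunit is typical of tissues that use lactate, had 3.97, 3.87 and 2.96 FPKM in A20-1, A20-3 and A20-4, against 13.05, 6.40 and 8.27 FPKM in BLM1, BLM2 and BLM3. Its knockout values all lay below the wild-type values, at 0.389 times their mean, and the log2 difference, -1.11 ± 0.24 (SE, limma adjusted p = 0.0889), was the largest in size of the 34 genes at this pseudocount, while at a pseudocount of 5 it was -0.70, against -0.81 for Slc16a3 and -0.78 for Slc2a1. Ldha averaged 92.0 ± 8.33 FPKM in knockout and 101 ± 10.5 FPKM in wild-type libraries (SD, n = 3 each; adjusted p = 0.563). Ldhb thus made up 3.80% ± 0.796 of the step in knockout and 8.49% ± 3.72 in wild-type libraries (exact permutation p = 0.1, adjusted 0.175), without overlap. BLM1 had the highest share, 12.7%, and without it the difference was -2.58 instead of -4.69 percentage points.

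**Figure D3:**
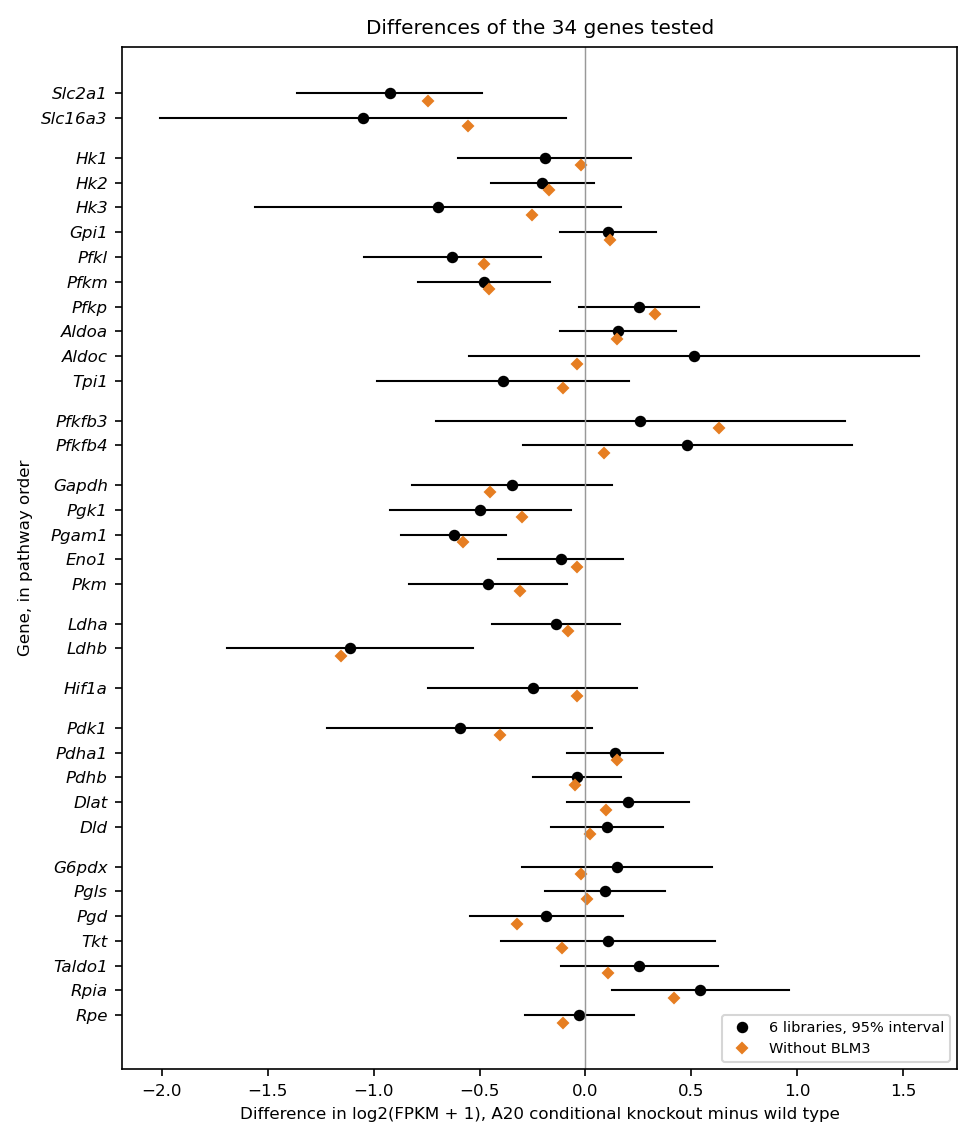
Difference in log2(FPKM + 1), A20 conditional knockout minus wild type, for the 34 genes tested in pathway order, with the 95% interval from limma (black) and the value without BLM3 (orange). The values of Pgam1, Ldhb and Pfkm barely moved without BLM3, whereas those of Slc16a3, Hk3 and Aldoc moved towards 0.

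Hif1a overlapped between groups, at 29.6, 23.8 and 22.3 FPKM in A20-1, A20-3 and A20-4, against 26.6, 25.0 and 40.3 FPKM in BLM1, BLM2 and BLM3. Its log2 difference was -0.25 with a 95% interval of -0.74 to 0.24 (limma adjusted p = 0.522), and -0.04 without BLM3. Pdk1, the kinase that switches off pyruvate dehydrogenase and a known HIF target, had 5.72, 3.58 and 3.43 FPKM in A20-1, A20-3 and A20-4, against 7.24, 4.61 and 9.15 FPKM in BLM1, BLM2 and BLM3. These also overlapped (log2 difference -0.59 ± 0.26, SE, limma adjusted p = 0.265).

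The subunits of the pyruvate dehydrogenase complex that are in the list differed little in level. Pdhb, the beta subunit of the E1 component, averaged 14.9 ± 0.266 FPKM in knockout and 15.3 ± 0.287 FPKM in wild-type libraries (SD, n = 3 each), with a 95% interval of the log2 difference from -0.25 to 0.17 (limma adjusted p = 0.822). Pdha1, its alpha subunit, averaged 24.4 ± 0.962 FPKM in knockout and 22.1 ± 1.13 FPKM in wild-type libraries, and Dlat, the E2 component, 10.2 ± 0.303 FPKM in knockout and 8.76 ± 1.19 FPKM in wild-type libraries, both with knockout values above all wild-type values (limma adjusted p = 0.439 for Pdha1 and 0.384 for Dlat). Dld, the E3 component, averaged 26.9 ± 1.16 FPKM in knockout and 25.1 ± 2.54 FPKM in wild-type libraries (adjusted p = 0.631).

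In the pentose phosphate pathway, 5 of 7 genes had positive and 2 negative differences, of which G6pdx and Tkt turned from positive to negative without BLM3, and 0 passed the test. Rpia, which makes ribose 5-phosphate from ribulose 5-phosphate, stood out. It had 8.16, 12.0 and 9.05 FPKM in A20-1, A20-3 and A20-4, against 7.06, 6.84 and 5.15 FPKM in BLM1, BLM2 and BLM3. Its knockout values lay above every wild-type value at 1.53 times their mean, or 0.54 ± 0.17 in log2 units (SE, limma adjusted p = 0.167). It was the single gene of the 34 that was higher at an unadjusted p under 0.05.

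The oxidative enzymes overlapped. G6pdx, which commits glucose 6-phosphate to the pathway, averaged 49.0 ± 7.46 FPKM in knockout and 44.4 ± 8.73 FPKM in wild-type libraries (SD, n = 3 each; limma adjusted p = 0.687). Pgd, the second NADPH-yielding enzyme, averaged 67.2 ± 5.35 FPKM in knockout and 77.2 ± 12.9 FPKM in wild-type libraries (adjusted p = 0.516), and Pgls, the lactonase between them, 15.02 ± 1.26 FPKM in knockout and 14.1 ± 1.44 FPKM in wild-type libraries (adjusted p = 0.693). In the non-oxidative branch, which shuttles carbon back to glycolysis, the transaldolase gene Taldo1 reached 209 ± 13.5 FPKM in knockout and 177 ± 30.7 FPKM in wild-type libraries (adjusted p = 0.391), second in level to Aldoa. The transketolase gene Tkt averaged 70.0 ± 6.89 FPKM in knockout and 66.4 ± 18.01 FPKM in wild-type libraries (adjusted p = 0.800), and the epimerase gene Rpe 13.8 ± 0.657 FPKM in knockout and 14.2 ± 1.35 FPKM in wild-type libraries (adjusted p = 0.899), a difference whose sign turned after rescaling to TPM.

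Summed over each stage and taken as a share of the library's FPKM, the stages differed in direction. Lower glycolysis made up 0.151%, 0.139% and 0.142% of the sum in A20-1, A20-3 and A20-4, against 0.173%, 0.174% and 0.208% in BLM1, BLM2 and BLM3. Pentose phosphate genes made up 0.167%, 0.156% and 0.158% in A20-1, A20-3 and A20-4, against 0.152%, 0.154% and 0.111% in BLM1, BLM2 and BLM3. Neither of these shares overlapped between groups, but A20-3 and BLM2 were close for the pentose phosphate share. Transporters made up 0.00811% ± 0.000936 in knockout and 0.0166% ± 0.00705 in wild-type libraries, and pyruvate dehydrogenase genes, Pdk1 included, 0.0298% ± 0.000653 in knockout and 0.0273% ± 0.00141 in wild-type libraries (SD, n = 3 each), also without overlap. The library sums that divide these shares were lower in every knockout library, at 266094 to 277394 against 280415 to 294525, which raises the knockout shares. Undivided, the summed FPKM of the pentose phosphate genes and of the pyruvate dehydrogenase genes overlapped between groups. Without BLM3 the difference in the transport share was -0.00445 instead of -0.00852 percentage points, and in the pentose phosphate share 0.00735 instead of 0.0213. Upper glycolysis, at 0.147% ± 0.00841 in knockout and 0.140% ± 0.0111 in wild-type libraries, and lactate dehydrogenase overlapped. For the 4 shares that did not overlap, the exact permutation p was 0.1, the smallest it allows (0.175 adjusted over 7 shares). All 35 genes together made up 0.545% ± 0.0138 in knockout and 0.565% ± 0.0174 in wild-type libraries (exact permutation p = 0.2).

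**Figure D4:**
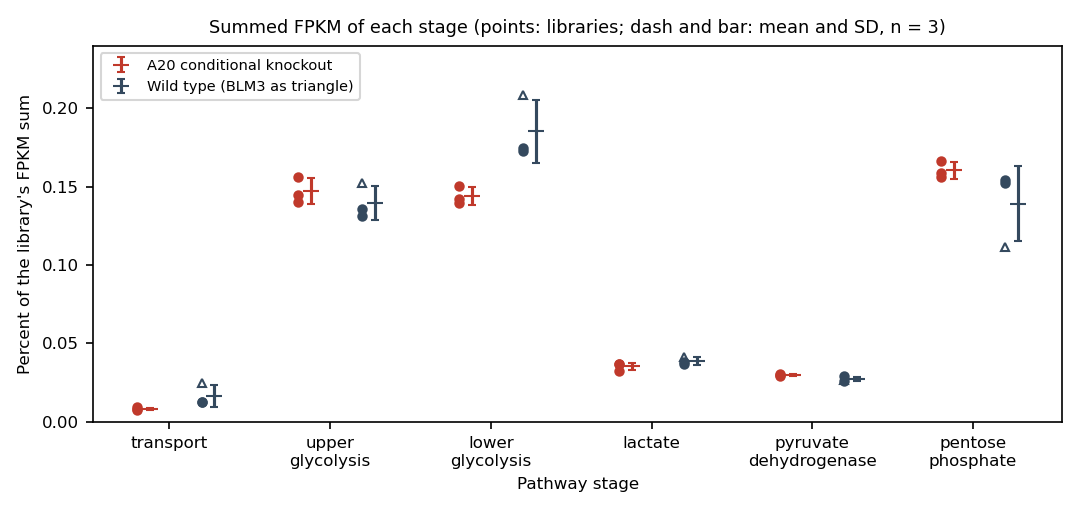
Summed FPKM of the genes of each stage as a percent of the library's FPKM sum, with A20 conditional knockout libraries left and wild-type libraries right, points for libraries and a dash and bar for mean and SD (n = 3 each). Knockout points lie below the wild-type points for transport and lower glycolysis and above them for pyruvate dehydrogenase and pentose phosphate genes, the last mainly through BLM3. The library sums that divide these values were lower in every knockout library.

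BLM3 held the highest of the 6 values in 14 of the 35 genes and the lowest in 10, against 26.5% and 27.6% of all genes tested. The count of 10 lows lay near the share over all genes. The 14 were both transporters, the 3 hexokinase genes, Pfkl, Tpi1, Pgk1, Pgam1, Eno1, Pkm, Ldha, Hif1a and Pdk1. The 10 were 6 of the 7 pentose phosphate genes (Pgd being the exception), Pfkfb4, Aldoc, Dlat and Dld. This single library thus topped the other 5 in 5 of 10 genes of upper and 4 of 6 of lower glycolysis and lay under them in 6 of 7 pentose phosphate genes. Relative to the mean of BLM1 and BLM2, BLM3 had 2.95 times the Slc16a3, 2.57 times the Hk3 and 1.56 times the Hif1a FPKM, but 0.298 times the Aldoc, 0.416 times the Pfkfb4 and 0.625 times the Tkt FPKM. With 1 library there is no replicate check.

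Markers of several other cell types moved with BLM3. The 9 neutrophil markers in the table summed to 2826 FPKM in BLM3, against 150 and 162 FPKM in BLM1 and BLM2 and 115 to 158 FPKM in the knockout libraries, and 7 of the 9 were highest in BLM3. Of the defining markers, Ly6g had 2.25 FPKM in BLM3 and 0.0752 in A20-1 and was listed at 0 in the other 4 libraries. Of the T and NK cell markers, 9 of 10 were highest in BLM3, with a sum of 364 FPKM, against 160 and 130.2 FPKM in BLM1 and BLM2 and 184 to 224 FPKM in the knockout libraries. Of the monocyte and recruited macrophage markers, 9 of 14 were highest in BLM3. Alveolar macrophage markers were lowest in BLM3 in 12 of 15 cases. Other libraries differed in markers too. The 5 B cell markers summed to 84.8 FPKM in BLM1 and 78.1 FPKM in BLM3. Their sums were 10.6 FPKM in BLM2 and 11.6 to 20.1 FPKM in the knockout libraries. The 5 erythroid markers in the table summed to 3551 FPKM in A20-3 and 2484 FPKM in BLM3. Elsewhere they summed to 188 to 968 FPKM. The part of all these cells in the values of BLM3, BLM1 and A20-3 was not tested. Without BLM3, neutrophil sums overlapped between the groups, and monocyte and recruited macrophage sums did not. The latter were 562 to 726 FPKM in knockout libraries and 1926 and 2157 FPKM in BLM1 and BLM2. With all 6 libraries, 3 of the 9 neutrophil markers lay lower in every knockout library, and 0 higher. Among these, S100a8 had 28.25 to 40.0 FPKM in knockout libraries, against 82.6 and 78.0 FPKM in BLM1 and BLM2. Ltf had 20.9 to 35.45 FPKM in knockout libraries, against 9.01 and 13.1 FPKM in BLM1 and BLM2.

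**Figure D5:**
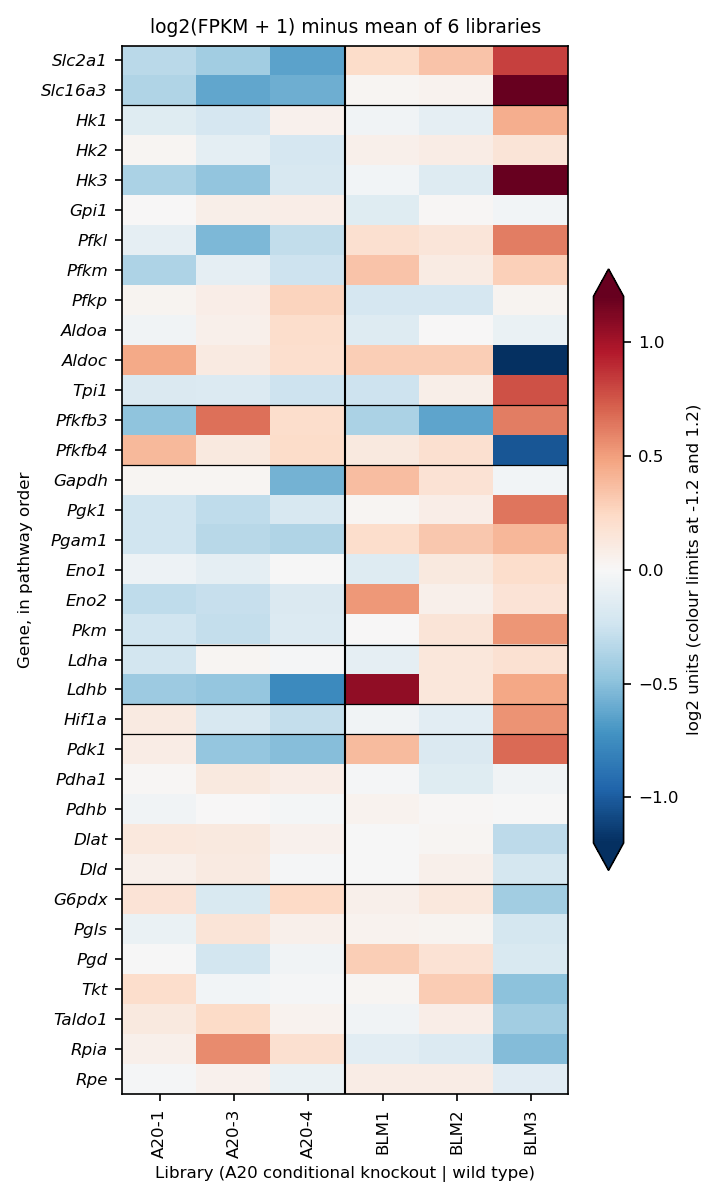
Log2(FPKM + 1) of each gene minus its mean over the 6 libraries, with genes in pathway order down the page and A20 conditional knockout libraries left of the wild-type libraries. BLM3 is the most deviant column, high for 14 genes, mostly of glycolysis, and low for 10, of which 6 are pentose phosphate genes.

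Genes that share a chromosome differed in their values. Eno2, Tpi1 and Gapdh lie within 406 kb of each other on chromosome 6 (chr6:124760053-125166467, GRCm38), and of these only Eno2 had groups that did not overlap. The 3 X-linked genes also differed, since Pgk1 lay lower in the knockout libraries, Pdha1 higher, and G6pdx overlapped.

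Around these pathways, 92 of 115 listed related genes were tested in 8 lists, and 0 rose or fell with 6 libraries in any list. Among 7 other genes of glucose and lactate transport, the median log2 difference was -0.18, and -0.29 without BLM3. Of these, Slc2a6, which encodes the hexose transporter GLUT6, had 3.49, 2.97 and 3.28 FPKM in A20-1, A20-3 and A20-4. In BLM1, BLM2 and BLM3 it had 5.98, 6.03 and 14.2 FPKM. It did not overlap (log2 difference -1.10 ± 0.30, SE, limma adjusted p = 0.128) and fell without BLM3 (-0.73, adjusted p = 0.0313). Slc2a9, a urate and hexose transporter, had a log2 difference of -0.31 (adjusted p = 0.182). Among 9 other genes of glycolysis isoenzymes and side reactions, the median was 0.08, and 0.005 without BLM3. The muscle enolase gene Eno3 had -0.71 (adjusted p = 0.118) and the PFKFB gene Pfkfb2 0.30 (adjusted p = 0.197).

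Of 11 other genes of pyruvate entry and its control (median 0.005, and -0.10 without BLM3), the kinase gene Pdk3 had 9.23, 10.8 and 9.66 FPKM in A20-1, A20-3 and A20-4, against 7.08, 7.93 and 6.52 FPKM in BLM1, BLM2 and BLM3 (log2 difference 0.41, limma adjusted p = 0.123), opposite in sign to Pdk1. The phosphatase subunit gene Pdpr had 0.73 (adjusted p = 0.175), with overlap. Of 11 other genes of the pentose phosphate pathway and NADPH supply (median 0.08, and -0.09 without BLM3), Prps1, which turns ribose 5-phosphate into the nucleotide precursor PRPP, had 0.27 (adjusted p = 0.172). The malic enzyme gene Me1 had -0.49 (adjusted p = 0.190) and fell without BLM3 (-0.66, adjusted p = 0.0498).

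Of 15 genes of glycogen and hexose entry (median -0.10), the glycogen phosphorylase gene Pygl had 44.2, 48.3 and 52.1 FPKM in A20-1, A20-3 and A20-4, against 32.4, 35.4 and 29.0 FPKM in BLM1, BLM2 and BLM3. Its knockout values lay above every wild-type value (log2 difference 0.57 ± 0.12, SE, limma adjusted p = 0.0851), while the galactokinase gene Galk1 lay below (-0.54, adjusted p = 0.104). In the 19 genes of the citric acid cycle and citrate use (median 0.06, and -0.03 without BLM3), the succinate dehydrogenase gene Sdhb had -0.22 (adjusted p = 0.236) and the citrate lyase gene Acly 0.54 (adjusted p = 0.309), with overlapping groups and 0.25 without BLM3.

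Of the HIF pathway outside glucose metabolism, 0 of 13 targets and 0 of 7 oxygen-sensing genes passed the test. Of 13 HIF targets, 4 had positive and 9 negative log2 differences, with a median of -0.06. Vegfa, the vascular growth factor gene, had 0.612, 1.23 and 1.48 FPKM in A20-1, A20-3 and A20-4, against 1.93, 1.33 and 11.6 FPKM in BLM1, BLM2 and BLM3 (limma adjusted p = 0.360), and Ankrd37 likewise reached 5.09 FPKM in BLM3 and at most 0.695 FPKM elsewhere (adjusted p = 0.386). Their log2 differences were -1.09 for Vegfa and -0.93 for Ankrd37, and -0.33 and -0.24 without BLM3. Of 7 oxygen-sensing genes, Arnt, the HIF partner subunit, had a log2 difference of 0.28 (adjusted p = 0.256) and Egln1, the main HIF prolyl hydroxylase gene, 0.22 (adjusted p = 0.290).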

How the data were processed

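Total RNA was made into libraries with a stranded KAPA kit, per the labels' protocols. The authors deposited 1 table of FPKM per gene and library, per the file headers, with build GRCm38, per the submitters' processing notes. Which aligner, quantifier and annotation release were used, and whether strand was, is not given in the sources used here. All 11789 genes listed are protein-coding, and the lowest mean of a gene's higher group was 0.5001 FPKM. Whole reads could not be recovered from steps in the low values, so depth is unknown.

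Columns were assigned by name: A20 to the knockout and BLM alone to the wild-type group. Their numbers are not the titles' replicate numbers. The 10696 genes that averaged 1 FPKM or more (1093 left out, Eno2 among them) were compared on log2(FPKM + 1) with limma 3.58.1 (eBayes with trend, two-sided, Benjamini-Hochberg over all genes tested, threshold 0.05) in R 4.3.3. Differences are knockout minus wild type and understate the change of low genes. Shares and sums were compared by exact two-sided permutation tests, which cannot go below 0.1. Alternatives were 2 other pseudocounts, 2 other minimum levels, TPM, quantile normalization and leaving out each library. Every gene of the list is named. Of each related list, those past the threshold or the 2 with the smallest p are named, and also Pdhx as a subunit of pyruvate dehydrogenase. The genes, lists and tests were chosen with earlier results of these data known. Promoters are from RefSeq (GRCm38.p6).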

Additional observations from a re-analysis of the deposited data

How the results depend on the processing

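Over 12 alternatives, 6 of them leaving out a library, 396 of 407 values of the 34 genes kept their sign and their side of the threshold. Without BLM3, Slc2a1 and Pgam1 passed it, so the number of these genes called lower ran from 0 to 2 with a library left out, and the number called higher was 0 in every alternative. Over all genes, 27 rose and 91 fell, against 41 rises and 64 falls under TPM (39.0% rises against 22.9% as deposited), where the median log2 difference of all genes was 0.10 instead of 0.02. There were 17 rises and 58 falls at a minimum mean FPKM of 5, and 0 to 144 rises and 0 to 267 falls with a library left out. Without A20-3, limma called 0 genes. Fewer libraries also give less power. Under TPM the log2 difference turned to 0.0409 for Pdhb and 0.0523 for Rpe. With a library left out, log2 differences ran from -0.00905 to 0.63 for Pfkfb3, -0.0382 to 0.79 for Aldoc, -0.0219 to 0.28 for G6pdx, -0.11 to 0.29 for Tkt, -0.11 to 0.0103 for Rpe and -0.14 to 1.27 for Tnfaip3. The knockout minus wild-type difference in share ran from -11.2 to 7.53 points for Pfkfb3, -7.53 to 11.2 for Pfkfb4, -3.72 to 1.49 for Aldoa and -1.49 to 3.72 for Aldoc. With quantile normalization the pyruvate dehydrogenase sum differed by 0.000689 points instead of 0.00248, and the cause was not tested. No paired analysis was possible because the columns do not carry the replicate numbers of the sample titles.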
